A study of Mus musculus with 16 samples.

Results

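The genes described here encode 10 secreted proteins of the BMP, GDF and activin branch of the TGF-β superfamily. They are the ligands Bmp2, Bmp4, Bmp7, Gdf5, Gdf6 and Inhba, and the antagonists Grem1, Nog, Chrdl1 and Fst. They were chosen as a list of family members, with earlier results of these data known but not by a rule on their values. They were found by matching Ensembl identifiers to mouse gene symbols. All 10 are among the 29629 genes of the single-cell table and the 47729 genes of the tendon table.

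BMP2, BMP4, BMP7, GDF5 and GDF6 bind pairs of type I and type II serine/threonine kinase receptors, which phosphorylate Smad1, Smad5 and Smad9. Activins bind related receptors and act through Smad2 and Smad3, the same Smads that TGF-β uses. Secreted antagonists bind the ligands outside the cell and keep them from their receptors, and each prefers certain ligands. In the limb, BMPs drive cartilage and bone formation and induce cell death between the digits, Gdf5 and Gdf6 mark forming joints, and Nog is expressed in cartilage condensations and shapes the joint.

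The single-cell samples came from *ScxGFP* iPSCs, an induced pluripotent stem cell line made from mouse embryonic fibroblasts carrying a GFP transgene under *Scx* regulatory sequence. According to the study's methods, the line was a single selected clone, and mesodermal cells were induced with CHIR, an activator of Wnt signalling, and cyclopamine, an inhibitor of hedgehog signalling. Mesodermal cells without TGF-β2 were group T0, and groups T3, T6 and T9 had received recombinant human TGF-β2 at 10 ng/ml during 3, 6 and 9 days. No plate without TGF-β2 was taken on day 3, 6 or 9, so effects of TGF-β2 and of days in culture cannot be told apart. Live single cells, gated on Hoechst and on exclusion of Sytox, were sorted into 384-well plates, with 3 plates at each time point. The tendon samples were bulk RNA from the Achilles tendon of 2-week-old mice, 2 wild-type (Wt) and 2 littermates labelled as homozygous *Scx* knockouts (homoKO). The strain and sex of these mice, the knockout allele and whether animals were pooled are not given in the sources used here.

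Wells with at least 200 detected genes were used, which kept 4594 of 4608. Plates held between 1921125 and 4657093 unique molecular identifiers (UMIs, each marking 1 captured mRNA molecule), and tendon samples held between 11188270 and 12398560 reads. Levels are in CPM, the UMIs or reads of a gene per 1000000 of the same sample. UMI counts tag the 3′ end of each mRNA, so gene length was not corrected for in the plates. The plates are the replicates, and nothing in the labels says that they came from separate cultures, so that p-values measure the spread between plates, which may be technical. The 384 well barcodes recur in every plate, since each well position has its own. The plates also fell into a library split: by the study's mapping summary, 7 plates had more reads outside any annotated feature (all of T0, T3-2, T6-1, T6-3 and T9-3), and 5 had fewer (T3-1, T3-3, T6-2, T9-1 and T9-2). The summed tenocyte marker list went from 479 to 563 CPM in the T0 plates to 13747 to 40884 CPM in the T9 plates, with all 10 genes above 0 from T3 on.

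In the GENCODE annotation of GRCm38, *Bmp2* lies at chr2:133552159-133562885, *Bmp7* at chr2:172868012-172940321, *Gdf5* at chr2:155941023-155945367 and *Grem1* at chr2:113746164-113758646. *Bmp4* lies at chr14:46383520-46390669, *Inhba* at chr13:16011851-16031621, *Fst* at chr13:114452290-114458951, *Gdf6* at chr4:9844372-9862345, *Nog* at chr11:89300638-89302332 and *Chrdl1* at chrX:143285674-143394262. All are protein-coding genes. On the opposite strand, *Gm15557* shares 936 exonic bases with *Gdf5*, *Gm47040* shares 115 with *Fst*, and *Gm15217* shares 89 with *Bmp4*. Whether counting used the strand is not given in the sources used here, so reads of these overlaps cannot be told apart, and *Gdf5* is uncertain for that reason.

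RefSeq promoter sequences on GRCm38.p6 were at hand for 3 of the 10 members (*Inhba*, *Bmp4* and *Grem1*). Shown are the 250 bases upstream of the start of *Inhba*, the member with the largest change during induction, and of *Bmp4*, the member with the highest mean level at every time point. The *Inhba* sequence is chr13:16011601-16011850 on the plus strand, and the *Bmp4* sequence is chr14:46390670-46390919 on the minus strand. Capitals mark a TATAAA match in *Inhba* and E boxes (CANNTG, the short motif that basic helix-loop-helix factors such as Scx bind) in *Bmp4*. TATAAA, the sequence of a TATA box, began 91 bases before the start of *Inhba*, and its function was not tested.
Inhba: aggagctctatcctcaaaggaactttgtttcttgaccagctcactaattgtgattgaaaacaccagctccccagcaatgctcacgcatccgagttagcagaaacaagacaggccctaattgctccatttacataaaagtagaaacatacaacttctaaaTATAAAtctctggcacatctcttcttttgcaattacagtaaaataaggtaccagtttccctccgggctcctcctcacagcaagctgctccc
Bmp4: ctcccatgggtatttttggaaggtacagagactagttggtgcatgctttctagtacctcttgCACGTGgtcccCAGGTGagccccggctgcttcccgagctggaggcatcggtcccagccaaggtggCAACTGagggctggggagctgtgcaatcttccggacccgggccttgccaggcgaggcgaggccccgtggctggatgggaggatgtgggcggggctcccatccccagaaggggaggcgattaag
On both strands of the same 250-base window, the *Inhba* promoter held 1 TATAAA and 0 CANNTG, whereas that of *Bmp4* held 3 CANNTG and 0 TATAAA. Over all 32851 promoter entries, 12.4% held TATAAA and 66.2% held CANNTG. The palindromic Smad-binding sequence GTCTAGAC, present in 0.167% of promoters, was in none of the 3 members' windows. The GC-rich sequence GGCGCC, present in 9.59%, was found 1 time, in *Grem1*. The GC content of the windows shown was 43.2% for *Inhba* and 63.2% for *Bmp4*.

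During TGF-β2 treatment, the activin subunit gene *Inhba* went from the lowest mean level of the family to among the highest. Its T9 mean rests largely on 1 plate, with 76.6 CPM in T9-3 against 16.3 and 12.2 CPM in the others. The activin antagonist gene *Fst* rose by T3, *Gdf6* increased late, *Nog* was higher from T3, and *Bmp7* declined. Plate sums were compared in a single edgeR quasi-likelihood fit of all 12 plates, with TMM normalization and Benjamini-Hochberg adjustment over all 13372 genes tested, and a gene was called at an adjusted p under 0.05. The filter on low counts kept 8 of the 10 members, and *Gdf5* and *Chrdl1* fell below it. *Inhba* and *Gdf6*, with 2 and 8 UMIs in all of T0, passed through their later plates. The counts and medians over the members tested, and the fits of these genes against T0, are therefore descriptions. With only the T0 and T3 plates in the fit *Inhba* fell below the filter, and 2 members were called between T3 and T0. Between T3 and T0, 3 of the 8 members were higher and 0 were lower, beside 17.0% of all genes tested called higher and 16.2% called lower. Between T9 and T0, 6 were higher and 1 was lower, beside 23.6% and 21.6% of all genes, and both comparisons share the T0 plates. The median log2 fold change of the members tested was 1.58 between T3 and T0 and 1.49 between T9 and T0, beside 0.01 and -0.02 over all genes tested.

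**Figure D1:**
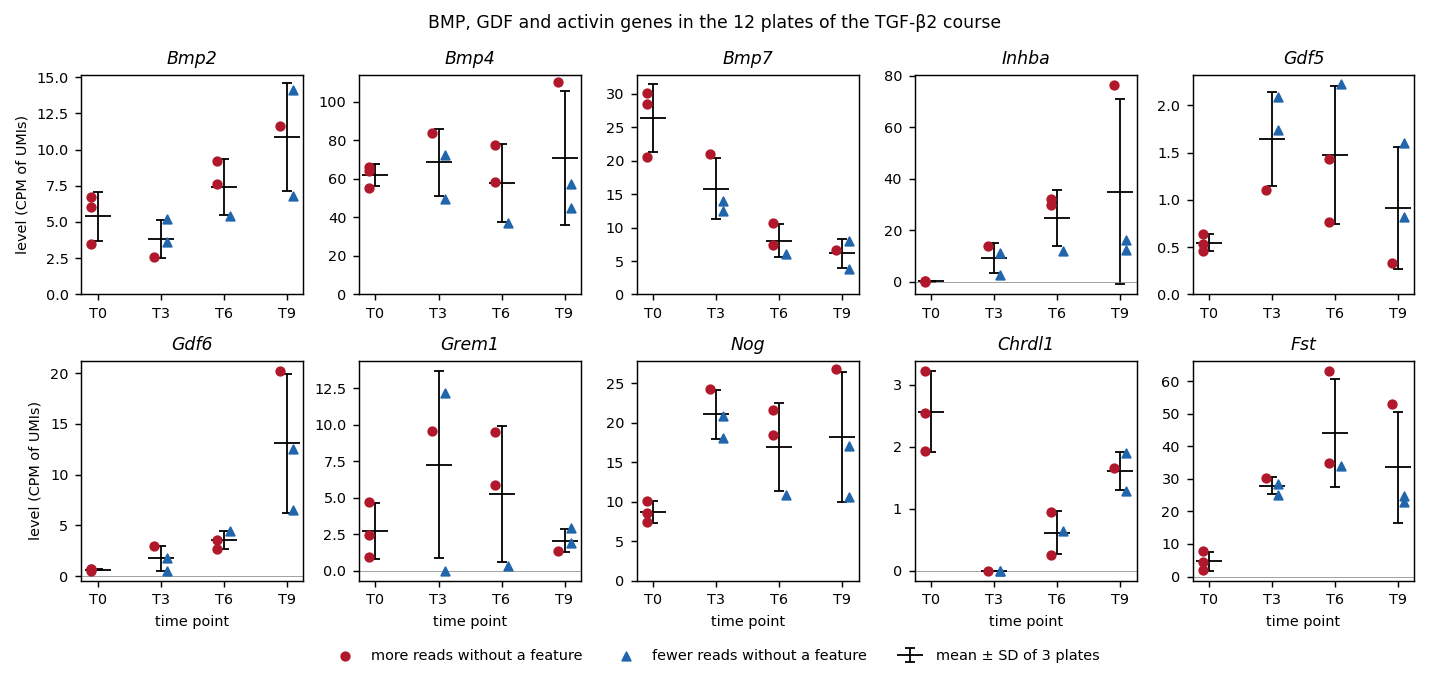
Level of each of the 10 genes in CPM (linear vertical axis, UMIs per 1000000) in the 12 plates by time point; each point is a plate, circles and triangles mark plates with more and fewer reads outside annotated features, and bars are the mean and SD of 3 plates. Inhba lies at 0.269 CPM or less in the T0 plates and reaches 76.6 CPM in 1 T9 plate, while Bmp4 spans 37.2 to 110 CPM with no separation of the time points.

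Among the ligands, *Inhba* encodes the βA subunit, of which pairs form activin A. Its level was 0.215, 0 and 0.269 CPM in the T0 plates, 2.60, 14.0 and 11.1 CPM at T3, 32.0, 12.1 and 30.0 CPM at T6, and 16.3, 12.2 and 76.6 CPM at T9. Every plate with TGF-β2 lay above every T0 plate, and the T9 plates differed among themselves widely, from 12.2 to 76.6 CPM. The log2 fold change was 5.78 ± 1.01 (SE, n = 3 and 3 plates, adjusted p = 0.000651) between T3 and T0 and 7.80 ± 0.89 (adjusted p = 9.21e-06) between T9 and T0. Since T0 held 2 UMIs of *Inhba* in 12691879, these values depend on the prior count of the fit. By pooled UMIs, the ratio was 63.4 at T3 (95% counting interval 17.0 to 533) and 213 at T9 (58.4 to 1765), intervals that cover counting error only. Neither T6 minus T3 (1.38 ± 0.55, adjusted p = 0.188) nor T9 minus T6 (0.64 ± 0.50, adjusted p = 0.551) passed the test.

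*Inhba* was higher in the plates with more reads outside features at each time point with TGF-β2. At T9 these gave 76.6 CPM in 1 plate against a mean of 14.2 CPM in 2, at T6 a mean of 31.0 CPM in 2 plates against 12.1 CPM in 1, and at T3 14.0 CPM in 1 plate against a mean of 6.88 CPM in 2. *Bmp4* (110 against 51.3 CPM at T9, 68.0 against 37.2 at T6, 84.0 against 60.8 at T3), *Fst* and *Nog* had the same order of means at all 3 time points, as did *Bmp7*. These levels are in CPM before TMM normalization. After it, the order of *Fst* turned at T3, with 25.3 CPM in T3-2 against 28.3 and 29.8 CPM. For *Nog* at T3 (20.4 CPM in T3-2 against 23.6 and 18.9) and *Bmp7* at T9 (6.39 CPM in T9-3 against 5.17 and 10.4), the plate with more such reads lay between the others. The part of the library split in these levels was not tested on its own. With the split as a covariate, *Inhba* at T9 minus T0 gave 8.41 (adjusted p = 1.85e-09), and *Fst*, *Nog*, *Bmp2*, *Bmp7*, *Gdf6* and *Bmp4* kept their direction and call.

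*Gdf6*, a ligand of joints and of tendon and skeletal patterning, was near its detection limit at T0, with 0.644, 0.695 and 0.538 CPM. It gave 0.521, 2.95 and 1.74 CPM at T3, 3.58, 4.45 and 2.62 CPM at T6, and 6.52, 12.5 and 20.2 CPM at T9. The T9 plates lay above all 9 earlier plates. The log2 fold change was 2.04 ± 0.45 (SE, adjusted p = 0.0405) between T9 and T6 and 4.72 ± 0.55 (adjusted p = 1.05e-05) between T9 and T0, with pooled UMIs of 124 against 8 and a ratio of 20.1 (95% counting interval 9.87 to 47.5). The rise between T3 and T0 did not pass (1.66 ± 0.65, adjusted p = 0.0623). *Gdf6* was the 1 member called higher between T9 and T6, and 0 were lower, beside 0.935% and 0.688% of all genes. This call was lost in 5 of the 6 fits that left out a plate of T6 or T9 (all but T6-2, adjusted p from 0.0532 to 0.189), and the change between T9 and T0 was called in all 6.

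*Bmp7*, a BMP of kidney and eye development, declined. Its level was 20.6, 30.1 and 28.5 CPM at T0, 12.5, 21.0 and 13.9 CPM at T3, 10.7, 6.05 and 7.37 CPM at T6, and 3.80, 8.03 and 6.63 CPM at T9. No T6 or T9 plate reached the level of a T3 or T0 plate. The log2 fold change between T9 and T0 was -1.63 ± 0.30 (SE, adjusted p = 0.000503), and those between T3 and T0 (-0.53 ± 0.28, adjusted p = 0.153) and between T6 and T3 (-0.95 ± 0.30, adjusted p = 0.094) did not pass.

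*Bmp2*, an inducer of bone and cartilage, ranged from 2.58 to 14.1 CPM. It was 6.01, 6.72 and 3.50 CPM at T0 and 6.79, 14.1 and 11.6 CPM at T9, with 2.58 to 5.23 CPM at T3 and 5.41 to 9.21 CPM at T6. The lowest T9 plate was just above the highest T0 plate. Between T9 and T0 the log2 fold change was 1.47 ± 0.38 (SE, adjusted p = 0.00634), and 0.98 with an adjusted p of 0.0577 when plates were scaled by library size alone.

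*Bmp4*, a regulator of mesoderm and of limb and heart development, had the highest mean level of the family at each time point. It measured 55.4, 64.1 and 66.2 CPM at T0, 49.5, 84.0 and 72.1 CPM at T3, 77.6, 37.2 and 58.5 CPM at T6, and 57.6, 45.0 and 110 CPM at T9. In CPM the time points overlapped, with means of 61.9 ± 5.73 (SD, n = 3) at T0 and 71.0 ± 34.7 at T9. After TMM normalization the plates gave 45.1, 55.4 and 57.6 CPM at T0 and 78.3, 58.5 and 106 CPM at T9, and the log2 fold change was 0.63 ± 0.23 (SE, adjusted p = 0.0382). Scaled by library size alone it was 0.19 (adjusted p = 0.657), and the call was lost in 5 of the 6 fits that left out a plate of T0 or T9 (all but T9-2). *Gdf5*, a joint and tendon ligand, held 7, 12, 16 and 9 UMIs in all at T0, T3, T6 and T9, and at most 2.23 CPM in any plate. Its largest difference, between T3 (1.64 ± 0.50 CPM, SD, n = 3) and T0 (0.548 ± 0.091), gave an exact two-sided permutation p of 0.1, the smallest that 3 plates against 3 allow, and 0.16 after adjustment over the 8 such tests of *Gdf5* and *Chrdl1*.

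The scaling matters for the size of these values. TMM factors averaged 0.25 at T0 and -0.25 at T9 on the log2 scale, and with library size alone the median log2 fold change of all genes tested was -0.49 between T9 and T0, -0.21 between T3 and T0 and -0.25 between T9 and T6, beside -0.02, 0.01 and -0.01 with TMM. With library size alone the genes called higher and lower were 1755 and 4468 in place of 3155 and 2895 between T9 and T0, 1524 and 2369 in place of 2279 and 2160 between T3 and T0, and 27 and 63 in place of 125 and 92 between T9 and T6. *Inhba*, *Gdf6*, *Fst*, *Nog* and *Bmp7* kept their direction and their call between T9 and T0 under this scaling. *Grem1* turned from 0.12 to -0.41 with no call in either fit.

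Among the antagonists, *Fst* encodes follistatin, which binds activins and some BMPs. Its level was 7.73, 1.85 and 4.57 CPM at T0, 25.0, 30.2 and 28.6 CPM at T3, 63.2, 34.0 and 35.0 CPM at T6, and 24.7, 22.8 and 53.1 CPM at T9. All 9 plates with TGF-β2 lay above the 3 T0 plates, and T9 did not stand apart from T3. Its log2 fold change was 2.78 ± 0.38 (SE, adjusted p = 9.25e-05) between T3 and T0 and 3.24 ± 0.38 (adjusted p = 1.1e-05) between T9 and T0. Neither later step passed (0.66 ± 0.33, adjusted p = 0.304, for T6 minus T3, and -0.20 ± 0.32, adjusted p = 0.795, for T9 minus T6).

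*Nog* encodes noggin, which binds BMP2, BMP4 and some GDFs but not activins. Its level was 10.1, 7.41 and 8.61 CPM at T0, 20.8, 24.3 and 18.1 CPM at T3, 18.4, 10.8 and 21.6 CPM at T6, and 17.1, 10.6 and 26.9 CPM at T9. The T3 plates lay well above T0, and the lowest T6 and T9 plates were just above the highest T0 plate. The change on the log2 scale was 1.49 ± 0.27 (SE, adjusted p = 0.000861) between T3 and T0 and 1.51 ± 0.27 (adjusted p = 0.000419) between T9 and T0.

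*Grem1*, encoding gremlin 1, an antagonist of BMP2 and BMP4 in the limb bud, varied widely between the plates of T3 and of T6. It gave 4.72, 0.926 and 2.42 CPM at T0, 0, 9.58 and 12.2 CPM at T3, 5.89, 0.318 and 9.51 CPM at T6, and 1.90, 2.89 and 1.33 CPM at T9. A single cell held 20 of the 64 UMIs of T6. No step was called, with log2 fold changes of 1.66 ± 0.92 (SE, adjusted p = 0.18) between T3 and T0 and 0.12 ± 1.01 (adjusted p = 0.929) between T9 and T0. *Chrdl1*, encoding chordin-like 1, had 32 UMIs at T0 (1.93, 2.55 and 3.23 CPM), 0 in 7505207 UMIs at T3, 7 at T6 and 16 at T9 (1.90, 1.28 and 1.66 CPM). A count of 0 allows up to 0.400 CPM over the T3 plates together. The pooled 2.52 CPM of T0 was 6.31 times that limit, a ratio that leaves out the counting error of the 32 UMIs at T0. The exact two-sided permutation p was 0.1 for each of the 4 steps, the smallest these groups allow, and 0.16 after adjustment.

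Between T6 and T3, 0 of the 8 members were called in either direction by edgeR, beside 2.61% of all genes higher and 1.63% lower. At an unadjusted p under 0.05 there were 3 (*Bmp2* and *Inhba* higher, *Bmp7* lower), and DESeq2 also called 0. The share of all genes at that unadjusted level is not given, so the count of 3 is a description.

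In the order of mean levels, T0 ran *Bmp4*, *Bmp7*, *Nog*, *Bmp2*, *Fst*, *Grem1*, *Chrdl1*, *Gdf6*, *Gdf5* and *Inhba*. At T9 the order was *Bmp4*, *Inhba*, *Fst*, *Nog*, *Gdf6*, *Bmp2*, *Bmp7*, *Grem1*, *Chrdl1* and *Gdf5*. At T0 the plates of *Bmp4*, *Bmp7* and *Nog* did not overlap with those of the next gene, whereas *Bmp2* overlapped with *Fst*, *Fst* with *Grem1*, *Grem1* with *Chrdl1*, and *Gdf6* with *Gdf5*. At T9 each gene overlapped with the next except *Bmp7* with *Grem1*.

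The shares of cells with at least 1 UMI followed the levels for the genes that changed most. *Inhba* was found in 0.175% ± 0.151 of cells at T0 (SD, n = 3 plates) and in 15.4% ± 10.2 at T9, and *Gdf6* in 0.697% ± 0.151 and 7.58% ± 2.47. *Fst* went from 3.31% ± 2.13 to 10.9% ± 2.70, and *Bmp7* from 18.7% ± 2.15 to 3.84% ± 0.40. Cells differed in depth, with medians of 10175, 5703, 8794 and 7900 UMIs in the order of the time points, so each was also thinned to 3000 UMIs, which left out 76, 113, 68 and 36 cells. Thinned shares at T0 and T9 were 0.188% and 8.45% for *Inhba*, 0.279% and 3.18% for *Gdf6*, 1.22% and 5.59% for *Fst*, and 7.63% and 1.81% for *Bmp7*. For *Bmp4* the unthinned share was lower at T9 (25.0%) than at T0 (29.5%), and the thinned share was 15.2% ± 6.12 against 13.3% ± 2.70, with overlapping SDs, so the shares give no order.

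**Figure D2:**
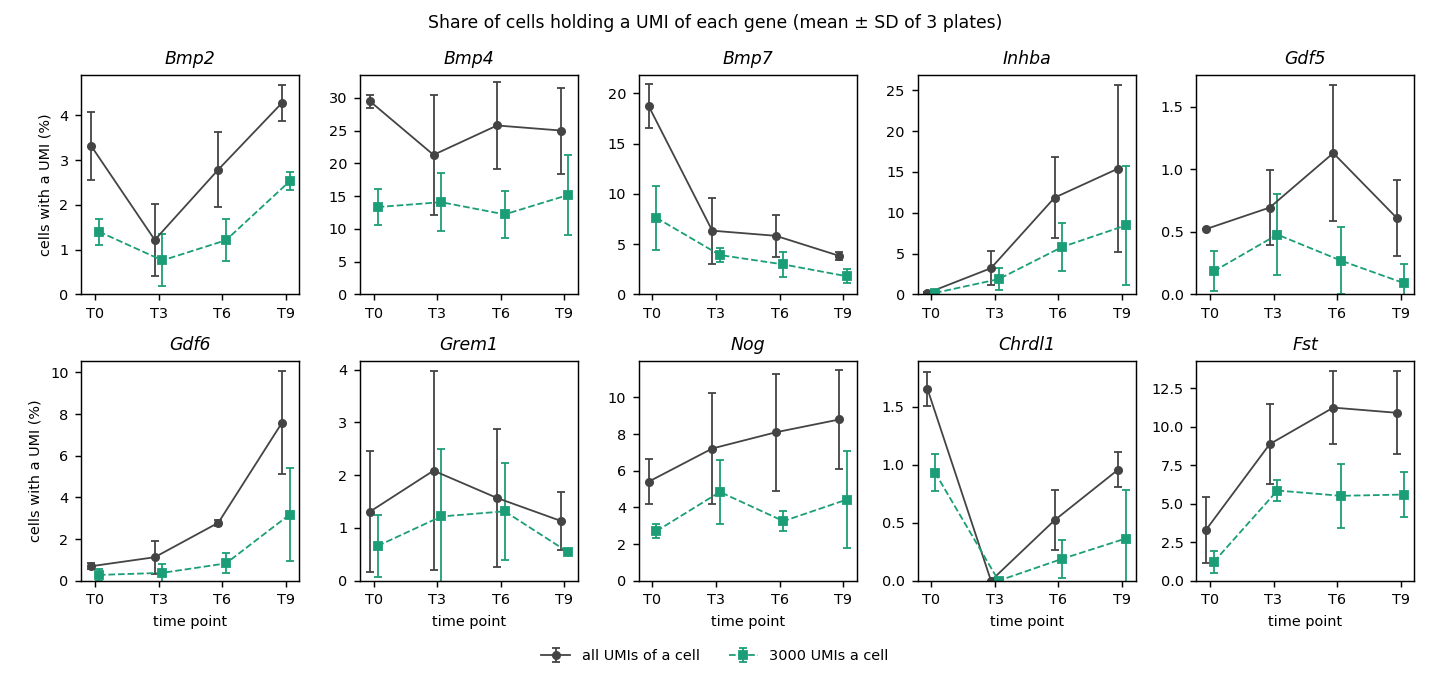
Percent of cells holding at least 1 UMI of each gene (vertical axis, linear from 0) by time point, as deposited (circles) and after thinning each cell to 3000 UMIs (squares); points are means and bars SDs of 3 plates. The share for Inhba goes from 0.175% at T0 to 15.4% at T9 as deposited and from 0.188% to 8.45% after thinning, and that for Bmp7 from 18.7% to 3.84% and from 7.63% to 1.81%.

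Markers of other cells moved with time. The epithelial list summed to 382 to 495 CPM in the T0 plates and to 18.2 to 113 CPM later, with all 5 genes above 0 at T0, and the pluripotent list to 309 to 647 CPM at T0 and 0 to 216 CPM later, with all 6 above 0 at T0. The smooth muscle list, with at least 4 of its 5 genes above 0 in every plate, summed to 274 to 594 CPM at T0, 765 to 1015 at T3, 2065 to 2490 at T6 and 2303 to 3494 at T9. The endothelial list of 6 genes went from 11.3 to 15.9 CPM at T0 to 15.1 to 71.5 at T3, 42.3 to 78.3 at T6 and 46.6 to 99.8 at T9, with *Cdh5* at 0 in all T0 and all T9 plates. The part of the smooth muscle and endothelial lists in the results was not tested. At T0, 120 of 1147 cells held 10 or more UMIs of the pluripotent list, *Epcam*, *Cdh1* and *Cldn6*. These cells held 16.4% of all T0 UMIs, but 34.3% of those of *Bmp2* and 32.8% of those of *Fst*, and 11.7% of those of *Bmp4* and 10.5% of those of *Bmp7*. At T6, 11 such cells held 2.64% of all UMIs and 24.7% of the *Bmp2* UMIs. Without such cells the log2 fold change between T9 and T0 was 1.67 for *Bmp2* (adjusted p = 0.00589), -1.69 for *Bmp7* (adjusted p = 0.000233), and 8.36 for *Inhba* (adjusted p = 5.88e-06), and between T3 and T0 that of *Fst* was 3.11 (adjusted p = 3.64e-05). The 7 members called between T9 and T0 and the 3 called between T3 and T0 stayed called without these cells.

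The other genes of the pathway were taken from a list of 78 (23 ligands, 17 antagonists, 14 receptors and co-receptors, 10 Smads and Smad regulators, and 14 target genes), of which 52 were tested. The classes are broad. The antagonist class also held other extracellular regulators, such as *Bmp1* and *Kcp*, neither of them called, and *Lefty1*, *Lefty2* and *Inha* were counted as ligands. The called antagonists rose, and most of the called target genes fell. Between T3 and T0, 4 of 11 antagonists were higher and 0 lower, and between T9 and T0, 6 were higher and 0 lower, with medians of 0.43 and 1.33 over the antagonists tested. Of 11 targets, 2 were higher and 6 lower between T3 and T0, and 1 higher and 7 lower between T9 and T0, with medians of -0.77 and -1.32. Receptors gave 3 higher and 1 lower of 12 at T3 and 5 higher and 1 lower at T9. Over all genes tested, 17.0% were higher and 16.2% lower between T3 and T0, and 23.6% and 21.6% between T9 and T0, and the receptors at T3 lie near these shares. Smads gave 1 higher and 4 lower of 10, then 0 higher and 5 lower, and other ligands 1 higher and 2 lower of 8, then 2 higher and 1 lower.

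Among the other antagonists, *Chrdl2*, a chordin-like antagonist, was at 0 in the T0 plates and at 3.53 ± 2.09 CPM at T3, and its fitted fold change is no bound. *Nbl1*, which encodes the antagonist DAN, rose between T6 and T3 by 1.61 ± 0.39 (log2, adjusted p = 0.0302). That call was lost with a replicate block (adjusted p = 0.0722), with only the T3 and T6 plates (0.103), with library size alone (0.109), and without T3-2, T3-3, T6-1 or T6-3 (adjusted p from 0.0565 to 0.138).

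Among the other ligands, *Gdf10* rose from 4.16 ± 1.64 CPM at T0 to 30.7 ± 6.95 at T3 and 124 ± 35.3 at T6, and was 106 ± 33.0 CPM at T9. Its log2 fold change was 3.10 ± 0.32 (SE, adjusted p = 7.55e-06) between T3 and T0 and 2.02 ± 0.27 (adjusted p = 0.00104) between T6 and T3. *Gdf9*, known as an oocyte ligand, was higher at T9 (4.55 ± 0.92 CPM) than at T0 (0.644 ± 0.194), with a log2 fold change of 3.23 ± 0.68 (adjusted p = 0.00157). *Gdf9* was near its detection limit at T0 and passed the filter through later plates, so this fit is a description. *Gdf3*, a ligand of pluripotent cells, fell from 10.1 ± 4.94 to 1.12 ± 0.43 CPM between T0 and T3 (log2 fold change -2.96 ± 1.00, adjusted p = 0.0355). That call was lost in 5 of the 6 fits without a plate of T0 or T3 (all but T0-3).

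Among the receptors, *Acvrl1*, which encodes ALK1, a type I receptor of BMP9 and BMP10, increased from 0.226 ± 0.232 CPM at T0 to 9.65 ± 4.74 at T9 (log2 fold change 5.58 ± 0.87, SE, adjusted p = 0.000145). With at most 0.463 CPM in a T0 plate, *Acvrl1* passed the filter through later plates. Its fit is a description, and the size depends on the prior count. *Acvr1*, which encodes the type I receptor ALK2, rose from 42.1 ± 5.77 CPM at T0 to 157 ± 26.4 at T3 (2.15 ± 0.24, adjusted p = 1.65e-05). *Acvr2b*, a type II receptor shared by activins, GDFs and BMPs, fell from 56.9 ± 7.32 CPM at T0 to 3.06 ± 0.22 at T9 (-3.71 ± 0.43, adjusted p = 1.13e-05). *Tgfbr3*, the co-receptor betaglycan, rose between T6 and T3 by 1.62 ± 0.39 (log2, adjusted p = 0.031). Its call was lost with a replicate block (adjusted p = 0.0551), with only the T3 and T6 plates (0.115), with library size alone (0.0789), without wells of pluripotent or epithelial markers (0.0558), and without any 1 of these plates but T6-2 (adjusted p from 0.0515 to 0.124).

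Among the targets, *Msx1* and *Msx2*, homeobox genes induced by BMPs in the limb and neural crest, fell. *Msx1* dropped from a T0 level of 109 ± 6.50 CPM (SD, n = 3) to 5.26 ± 3.72 at T3 and 1.15 ± 1.04 at T9, a log2 fold change of -6.09 ± 0.47 (SE, adjusted p = 2.42e-07) between T9 and T0. *Msx2* went from 63.2 ± 7.81 to 7.26 ± 6.10 and 2.67 ± 0.28 CPM (-4.06 ± 0.51, adjusted p = 2.11e-05). *Atoh8* fell from 14.1 ± 0.79 CPM at T0 to 0.382 ± 0.410 at T9 (-4.53 ± 0.71, adjusted p = 0.000161). The T9 plates held at most 2.32 CPM of *Msx1* and 0.815 CPM of *Atoh8*, so the sizes of these falls rest on few UMIs. Of the *Id* genes between T9 and T0, *Id4* was higher (2.06 ± 0.40, adjusted p = 0.000807) and *Id1* was not called (0.37 ± 0.20, adjusted p = 0.139). *Id2* (-1.32 ± 0.19, adjusted p = 8.63e-05) and *Id3* (-0.48 ± 0.16, adjusted p = 0.0268) were lower. These values are given outside the naming rule, after they were seen. *Runx2*, the osteoblast regulator, rose from 10.4 ± 4.68 CPM at T0 to 42.5 ± 10.2 at T3 (2.24 ± 0.34, adjusted p = 0.000218). *Hey1*, a target of BMP and of Notch, and *Id2* were lower at T6 than at T3, with log2 fold changes of -1.71 ± 0.37 (SE, adjusted p = 0.018) and -0.83 ± 0.19 (adjusted p = 0.0242). Without T3-1, T3-3, T6-1 or T6-3 both calls were lost (adjusted p from 0.0588 to 0.0834 for *Hey1* and from 0.0784 to 0.111 for *Id2*), and that of *Id2* also with a replicate block (0.0613) or with only the T3 and T6 plates (0.0769). Between T9 and T6, 0 of the 52 other pathway genes were called.

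**Figure D3:**
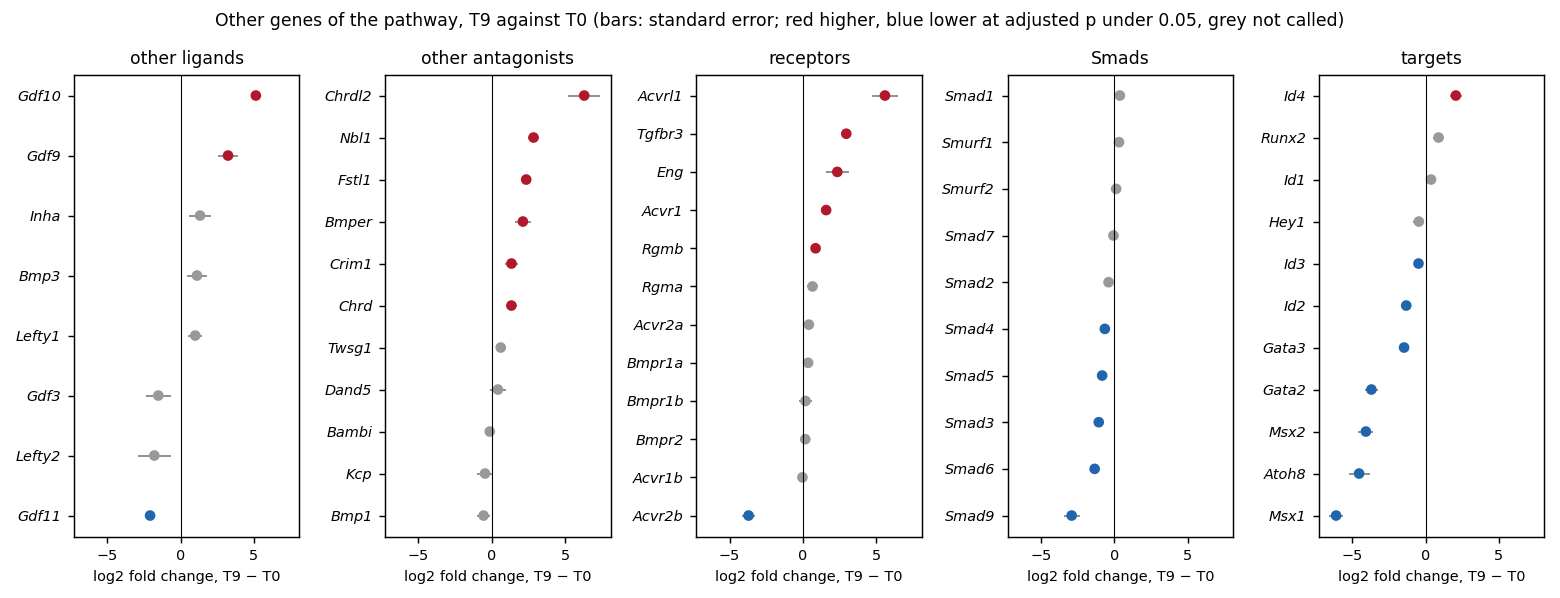
Log2 fold change between T9 and T0 (horizontal axis) of the 52 other pathway genes tested, grouped by role; points are edgeR estimates, bars standard errors, and colours mark genes called higher (red) or lower (blue). The called antagonists lie to the right, up to 6.29 for Chrdl2, whose T0 plates were at 0, and 7 of the 8 called targets lie to the left, down to -6.09 for Msx1.

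Whether these genes went with *Scx* or with *Tnmd* within a time point was examined by splitting the cells of each plate by the presence of a UMI of that gene, with the plate as a block. At T3, *Scx*+ cells numbered 290, 322 and 321 and *Scx*- cells 94, 61 and 63, and at T9, *Tnmd*+ cells numbered 74, 45 and 36 and *Tnmd*- cells 308, 336 and 348. A cell with more UMIs is more likely to be positive, and median UMIs per cell were 4744 against 4166, 6466.5 against 6041 and 7043 against 7013 in the *Scx* split, and 10039.5 against 8743, 7734 against 7303.5 and 8391.5 against 7029.5 in the *Tnmd* split. In the *Scx* split, 5 members were tested and 0 were called by edgeR or DESeq2, beside 0.168% of 8918 genes higher and 0.269% lower. At an unadjusted p under 0.05 there were 2, both higher in *Scx*+ cells, a description with no share of all genes beside it.

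These were *Fst* and *Nog*. *Fst* was 31.2, 31.0 and 32.6 CPM in *Scx*+ cells and 2.42, 25.8 and 4.79 CPM in *Scx*- cells, that is 47, 71 and 80 UMIs against 1, 11 and 2. *Nog* was 26.5, 24.9 and 20.4 CPM against 0, 21.1 and 4.79 CPM. In plates T3-1 and T3-3 both genes were low in *Scx*- cells, and in plate T3-2 they were close to the level of *Scx*+ cells. Both genes passed the filter through the *Scx*+ classes, where they were high, so their fits and unadjusted p-values are descriptions. The log2 difference was 1.61 ± 0.54 for *Fst* (SE, adjusted p = 0.33) and 1.56 ± 0.63 for *Nog* (adjusted p = 0.475), and with cells thinned to 3000 UMIs that of *Nog* was 0.57. *Bmp4* was 49.1, 91.3 and 64.8 CPM in *Scx*+ cells and 50.8, 44.6 and 115 CPM in *Scx*- cells, with no order between them.

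In the *Tnmd* split at T9, 7 members were tested and 0 were called by edgeR or DESeq2, beside 0.852% of 10090 genes higher and 0.337% lower. The 1 member under an unadjusted p of 0.05 was *Gdf6*, with 1.28, 2.52 and 2.91 CPM in *Tnmd*+ cells and 7.92, 14.0 and 22.5 CPM in *Tnmd*- cells. Each *Tnmd*+ class held 1 UMI of it, against 23, 38 and 60 in the *Tnmd*- classes. *Gdf6* thus passed the filter through the *Tnmd*- classes, where it was high. Its fit and its unadjusted p are descriptions, with no share of all genes given beside that p. It was lower in *Tnmd*+ cells in all 3 plates, and the log2 difference was -2.64 ± 0.68 (SE, adjusted p = 0.0862). By pooled UMIs (121 against 3) the level in *Tnmd*- cells was 7.39 times that in *Tnmd*+ cells (95% counting interval 2.47 to 36.4). Without a filter on low counts the adjusted p was 0.0252. *Gdf10* was the 1 other pathway gene called, at 41.9 ± 23.5 CPM in *Tnmd*+ and 116 ± 36.2 CPM in *Tnmd*- cells (-1.32 ± 0.26, adjusted p = 0.0189). Its call was lost without plate T9-3 (adjusted p = 0.0537). *Inhba* differed far more between plates (8.99, 15.1 and 69.8 CPM in *Tnmd*+ cells) than between classes (18.3, 11.8 and 77.5 CPM in *Tnmd*- cells).

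In the Achilles tendon, the knockout was checked first. *Scx* had 1151 and 996 reads in the Wt samples and 287 and 296 in the homoKO samples (log2 fold change -1.88 ± 0.17, SE, adjusted p = 0.000429), and which part of the gene the knockout removes is not given in the sources used here. *Tnmd* fell by 2.30 on the log2 scale. The homoKO samples differed from Wt in their tissue markers too. The summed tenocyte list was 153650 to 166750 CPM in Wt and 73065 to 84230 CPM in homoKO, the chondrocyte list 1387 to 1560.1 and 293 to 327 CPM, the adipocyte list 2592 to 5885 and 935 to 1569.6 CPM, and the skeletal muscle list 39443 to 71803 and 89963 to 93937 CPM, all genes of these lists being above 0. The Schwann cell list was 5712 CPM in homoKO replicate 1 and 43.0 CPM in replicate 2, against 641 and 650 CPM in Wt. Their part in the results below was not tested. In bulk tissue, fewer cells of a type and less RNA per cell cannot be told apart.

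All 10 members passed the filter in the tendon. In homoKO, 1 was higher (*Fst*) and 2 were lower (*Chrdl1* and *Inhba*), beside 1.77% of 14602 genes higher and 2.07% lower. The median log2 fold change of the 10 was 0.17, beside 0.00 over all genes tested. At an unadjusted p under 0.05 there were 5, and DESeq2 called 4. No share of all genes is given beside either count, so both are descriptions.

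*Chrdl1* had 429 and 408 reads in Wt and 177 and 186 in homoKO, or 38.3 and 33.3 against 14.3 and 15.8 CPM. Both homoKO samples lay far below both Wt samples. The genotypes differed by a log2 fold change of -1.20 ± 0.19 (SE, n = 2 and 2, adjusted p = 0.00908), and it was called without each of the 4 samples in turn.

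*Inhba* had 76 and 86 reads in Wt and 21 and 17 in homoKO, or 6.79 and 7.02 against 1.69 and 1.44 CPM. The samples within a genotype were close and the genotypes were apart. The fitted log2 fold change was -2.09 ± 0.46 (SE, adjusted p = 0.0384). *Fst* had 345 and 302 reads in Wt and 537 and 558 in homoKO, or 30.8 and 24.6 against 43.3 and 47.4 CPM. It was higher in both homoKO samples, by 0.76 ± 0.18 on the log2 scale (adjusted p = 0.0456). With any 1 of the 4 samples left out, neither *Inhba* (adjusted p from 0.0658 to 0.164) nor *Fst* (0.0584 to 0.201) was called, and the lone sample of the genotype was then taken to vary like the other group. Scaled by library size alone, *Fst* gave 0.71 (adjusted p = 0.0872).

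*Gdf6* and *Grem1* were higher in both homoKO samples without passing the test. *Gdf6* had 4 and 1 reads in Wt and 20 and 55 in homoKO (3.87 ± 0.98 on the log2 scale, SE, adjusted p = 0.0649), with homoKO replicate 2 at 4.67 CPM and replicate 1 at 1.61 CPM. With so few Wt reads, *Gdf6* passed the filter through the homoKO samples, and its fits are descriptions. *Grem1* had 91 and 95 reads in Wt and 166 and 209 in homoKO (1.02 ± 0.28, adjusted p = 0.0895). DESeq2 called *Gdf6* (adjusted p = 0.0101) but not *Grem1*.

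The other members gave no call. *Bmp4* had 218 and 199 reads in Wt and 257 and 238 in homoKO (0.25 ± 0.21), *Bmp2* 65 and 44 against 36 and 47 (-0.39 ± 0.47), and *Nog* 23 and 33 against 17 and 21 (-0.55 ± 0.64). *Bmp7* had 23 and 19 reads against 35 and 11 (0.10 ± 0.72) and *Gdf5* 16 and 11 against 20 and 14 (0.32 ± 0.76).

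**Figure D4:**
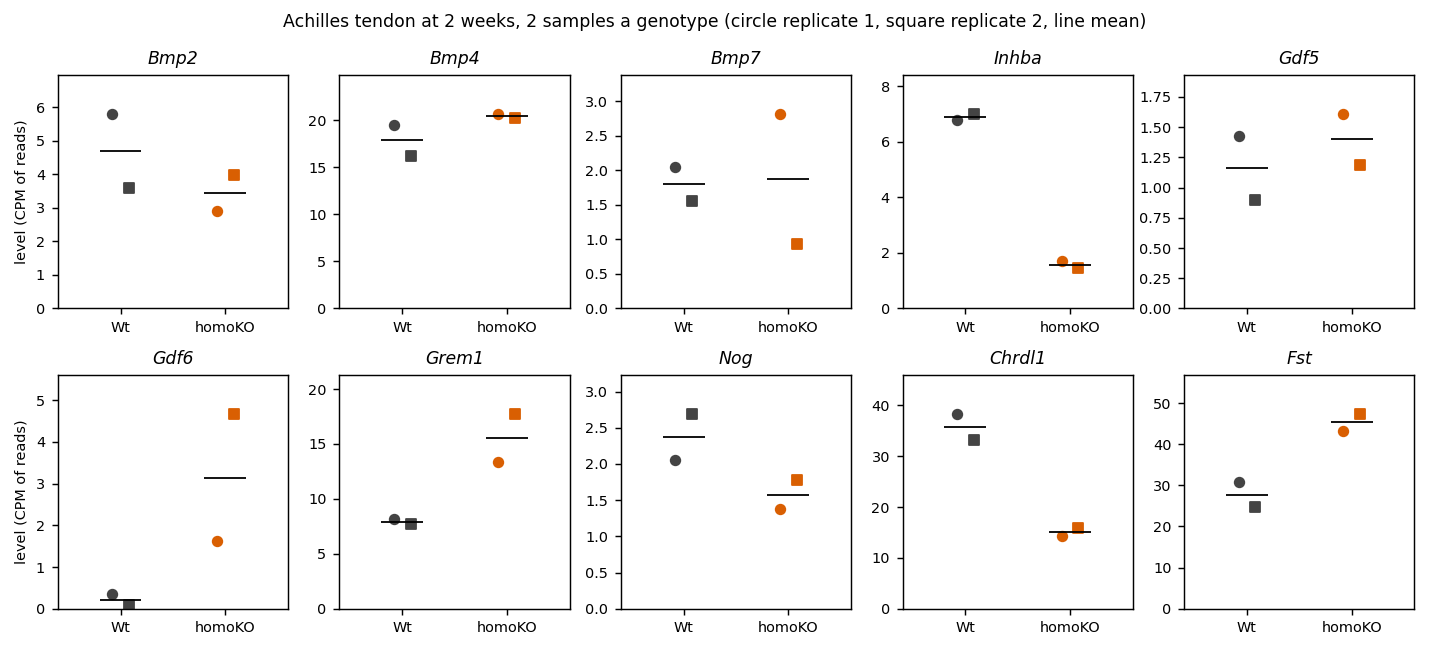
Level of each of the 10 genes in CPM (linear vertical axis from 0, reads per 1000000) in 2 Wt and 2 homoKO Achilles tendon samples; circles are replicate 1, squares replicate 2, and lines are means. Chrdl1 lies at 33.3 and 38.3 CPM in Wt and 14.3 and 15.8 in homoKO, Inhba at 6.79 and 7.02 against 1.69 and 1.44, and Fst at 24.6 and 30.8 against 43.3 and 47.4.

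Divided by exon length, the levels of the members in Wt tendon ran *Bmp4* (7.94 ± 1.02 CPM per kb, SD, n = 2), *Fst* (6.04 ± 0.96), *Chrdl1* (5.30 ± 0.53), *Grem1* (1.91 ± 0.07), *Nog* (1.40 ± 0.27), *Bmp2* (1.32 ± 0.44), *Inhba* (1.08 ± 0.02), *Gdf5* (0.502 ± 0.162), *Bmp7* (0.449 ± 0.089) and *Gdf6* (0.062 ± 0.055). *Fst* and *Chrdl1*, *Nog*, *Bmp2* and *Inhba*, and *Gdf5* and *Bmp7* overlapped between samples with their neighbours in this order. *Bmp4* was thus first in the tendon per exon length, and first in the plates in CPM without such a division. In CPM alone, the Wt tendon means were 35.8 for *Chrdl1*, 27.7 for *Fst* and 17.9 for *Bmp4*. *Chrdl1* was at or below 3.23 CPM in every plate.

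Of the 58 other pathway genes tested in the tendon, 1 was higher and 6 were lower in homoKO, beside 1.77% and 2.07% of all genes tested. *Bmp3*, a BMP-like ligand that counters bone formation, fell from 41.6 ± 2.44 to 6.80 ± 1.22 CPM (SD, n = 2, log2 fold change -2.57 ± 0.21, SE, adjusted p = 0.000262). *Bmp6* fell from 19.3 ± 0.46 to 5.03 ± 0.64 CPM (-1.90 ± 0.27, adjusted p = 0.00486). *Bmpr1b*, a type I BMP receptor of cartilage, fell from 29.9 ± 5.31 to 6.97 ± 3.61 CPM (-2.07 ± 0.34, adjusted p = 0.00996). *Acvr1c*, a receptor abundant in fat, went from 18.9 ± 11.6 to 2.78 ± 0.51 CPM (-2.69 ± 0.44, adjusted p = 0.0101), a call lost without Wt replicate 1 (-1.94, adjusted p = 0.0637). *Gdf11* rose from 29.9 ± 5.61 to 79.4 ± 18.2 CPM (1.45 ± 0.23, adjusted p = 0.00827). *Tgfbr3* and *Crim1* were also called lower, and are named here outside the naming rule, after their values were seen. The chondrocyte and adipocyte lists were lower in the same samples, as given above, and their part was not tested.

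For each member tested in the plates, the genes most like it were sought among 6886 genes with a mean of at least 20 CPM, by Pearson's r of log2 CPM over the 12 plates, which share depth and library split within a plate. *Inhba* was closest to *Adamts2*, a procollagen N-proteinase (r = 0.991), and *Col1a1* (0.988), *Fst* to *Tnc*, encoding tenascin C (0.974), and *Spty2d1* (0.973), and *Nog* to *Lpin1* (0.969) and *Ufl1* (0.954). *Gdf6* was closest to *Jag1*, a Notch ligand (0.951), and *Rnd3* (0.949), *Bmp2* to *Atf5* (0.953) and *Tcea3* (0.948), and *Bmp7* to *2700097O09Rik* (0.945) and *Cdc45*, a replication factor (0.945). *Bmp4* (*Nell2*, 0.894, and *Crebrf*, 0.886) and *Grem1* (*Zfp263*, 0.763, and *Pip4p1*, 0.755) had the least similar partners. These values describe the plates and carry no test.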

How the data were processed

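Single cells were processed by CEL-Seq2, and poly(A) RNA of the tendons with a directional kit. Per the labels and the study's methods, the authors aligned reads to GRCm38 with HISAT2 (2.2.1 for cells, 2.0.4 for tendon), and deposited whole-number counts per gene (featureCounts, with UMI-tools 1.0.1 collapsing cells' reads to UMI counts), without normalization. The annotation release is not given in the sources used here. Depth was 1921125 to 4657093 UMIs per plate and 11188270 to 12398560 reads per tendon sample. Entries outside Ensembl identifiers (3 entries, 0.0642% of UMIs) were left out, 29528 of 29629 and 47224 of 47729 identifiers matched a symbol, and the barcode list was not used. No doublet caller was run on the sorted cells.

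Counts were summed per plate, or per plate and class, and tested with edgeR 4.0.16 (filterByExpr, TMM, quasi-likelihood test, Benjamini-Hochberg over all genes tested) in R 4.3.3, which was tested on simulated data. CPM, exact tests and Clopper-Pearson intervals (95%) were computed in Python 3.11.15 with scipy 1.17.1, exon lengths from GENCODE M21. A limit for a count of 0 is 3 counts.

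All 10 members are named in each comparison. Of the other pathway genes, up to 4 rising and 4 falling ones per comparison are named, those with the largest change among called genes whose groups do not overlap. Of the pathway list, 1 gene is not reported here. The members and lists were chosen with earlier results of these data known. Alternatives were DESeq2 1.42.0, other scalings, no filter, blocking on the replicate number, a library split covariate, 1000 genes a well, fewer plates, thinning, a minimum of 2 UMIs, and leaving out each sample. The scaling by library size alone and the fits without wells of pluripotent or epithelial markers were added after seeing the data.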

Additional observations from a re-analysis of the deposited data

How the results depend on the processing

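Between T3 and T0 and between T9 and T0, leaving out each plate kept the calls of *Inhba*, *Nog* and *Fst* at T3 and *Bmp2*, *Bmp7*, *Inhba*, *Gdf6*, *Nog* and *Fst* at T9. Over all alternatives, member values kept their direction and side of the threshold in 620 cases, gained a call in 13, lost one in 26 and turned sign in 27, none of the last being called. Low counts limit *Gdf5*, *Chrdl1*, *Grem1* and both classes. The causes of the changes below were not tested.

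The count of members called went from 3 to 5 between T3 and T0 without a filter on low counts, from 0 to 1 between T6 and T3 without a filter or with the library split as a covariate, from 0 to 1 in the *Tnmd* classes without a filter, and from 3 to 5 between homoKO and Wt without a filter. The 1 member called between T9 and T6 became 2 with the split covariate and 0 with only the plates compared or library size alone. Genes called between T6 and T3 (567) were 899 with DESeq2, 1010 without a filter, 1483 with the split, 264 with only the plates compared and 299 with library size alone. Those between T9 and T6 (217) were, in the same order, 568, 684, 813, 45 and 90. In the *Scx* classes 39 became 22 with DESeq2, 116 without a filter and 25 with thinned cells. In the *Tnmd* classes 120 became 253 with at least 2 UMIs for a positive cell and 212 without a filter, and 560 between homoKO and Wt became 1415 without a filter.

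The labels do not say whether samples with the same replicate number share anything more. Deviations of same-numbered samples correlated between -0.563 and 0.515 over the pairs of time points. In the tendon they correlated at 0.0715, where 2 samples a genotype give every pair the same size of correlation, so that value cannot decide on pairing. With a replicate block, 113 genes and 0 members were called between T9 and T6, and 1108 genes and 5 members between homoKO and Wt, where *Bmp7* gave -0.047. The block also ended the call of *Bmp4* between T9 and T0 (0.60, adjusted p = 0.0534, edgeR). In the classes the plate is a true block, and with no replicate block 8 genes were called for *Scx* and 4 for *Tnmd*, and *Inhba* gave 0.057 in the *Scx* classes.

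Leaving out each sample gave 291 (without T6-1) to 890 (without T6-2) genes between T6 and T3, 35 (without T9-1) to 852 (without T9-3) genes and 0 to 1 members between T9 and T6, 2 (without T3-2) to 42 genes in the *Scx* classes, 65 (without T9-1) to 133 in the *Tnmd* classes, and 1 to 2 members between homoKO and Wt, where the lone sample is taken to vary like the other group. Log2 values spanned -0.64 to 0.083 for *Bmp2* (T3 minus T0), -1.24 to 0.18 for *Grem1* (T6 minus T3) and -0.28 to 0.79 (T9 minus T0). Between T9 and T6 they spanned -0.47 to 0.051 for *Bmp7*, -0.45 to 0.071 for *Fst* and -0.32 to 0.99 for *Inhba*. In the *Scx* classes the spans were -0.51 to 0.53 for *Bmp4*, -0.62 to 1.06 for *Bmp7* and -1.05 to 0.46 for *Inhba*. In the *Tnmd* classes they were -0.40 to 0.0056 for *Inhba* and -0.52 to 0.33 for *Nog*, and in the tendon -0.86 to 0.66 for *Bmp7*.

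Signs also turned elsewhere. Without wells of pluripotent or epithelial markers, *Bmp2* gave 0.12 (T3 minus T0) and *Grem1* -0.14 (T9 minus T0), the latter -0.41 with library size alone. In the *Scx* classes, DESeq2 gave 0.0041 for *Bmp4* and 0.21 for *Bmp7*, and no filter gave 0.074, 0.077 and 0.00086 for *Bmp4*, *Bmp7* and *Inhba*. In the *Tnmd* classes *Nog* gave 0.066 with at least 2 UMIs and 0.18 with thinned cells.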
